A study of Mus musculus with 5 samples.

Results

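The genes described here encode the Polycomb repressive complexes and the enzymes that remove ubiquitin from histone H2A, 36 of the 14454 gene symbols with a value in the files. They were chosen by function: 10 subunits of Polycomb repressive complex 2 (PRC2), 19 subunits of Polycomb repressive complex 1 (PRC1), and 7 H2A deubiquitinases with their partners. Messenger RNA was sequenced in 5 derivatives of the mouse embryonic fibroblast line NIH/3T3, each with an integrated copy of human H2A joined to EGFP. In 4 lines, numbered 3, 6, 15 and 18, the histone carried T120D, which places an aspartate where H2A has a threonine in its C-terminal tail, and in 1 line it was wild type (wt). All 5 lines were grown in DMEM with 10% fetal calf serum and 10 µg/ml gentamicin, and all keep their own mouse H2A genes. The promoter of the integrated gene, its level, and whether a line is 1 clone are not known from the labels, so differences between lines that precede or accompany the T120D substitution cannot be told apart from its effect.

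PRC2 methylates a lysine of histone H3 and PRC1 attaches ubiquitin to a lysine of the H2A C-terminal tail, and both marks accompany the repression of developmental genes. The ubiquitinated lysine of H2A lies directly before the threonine that T120D replaces. The ubiquitin is removed by BAP1, which works with an ASXL protein, and by several other proteases. In fibroblasts Polycomb is best known for holding down the cell cycle inhibitors of the Cdkn2a locus and genes of other lineages.

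Depth, estimated from the values of single-transcript genes, was 2524000 to 2704000 reads in the T120D lines and 2726000 in the wt line, so that 1 RPKM of a 2000-base transcript stands for 5.05 to 5.45 reads. All 10 fibroblast markers were above 1 RPKM in every line (lowest value 7.16 RPKM). Of the markers listed for other cells, 1 of 5 epithelial, 3 of 4 endothelial, 1 of 4 blood and 2 of 4 skeletal muscle genes had a value in the files. None of these exceeded 1.46 RPKM. The T120D lines differed from each other by more than counting noise, with a chi-square per gene of 1.58 to 1.73 among lines 3, 15 and 18 and of 2.48 to 2.93 between line 6 and these, against 11.2 to 13.9 between the T120D lines and wt. With 1 wt line, every difference below sets the distance of that line against the spread of the T120D lines, part of which may be technical.

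For most of these genes no difference was called between the T120D lines and the wt line, with a pair of exceptions that were higher in T120D. The PRC2 subunit gene Rbbp7 was 3.07-fold higher and the PRC1 subunit gene Phc2 1.86-fold higher. Differences were tested with limma on log2(RPKM + 1) for the 34 members averaging 1 RPKM or more across the 5 lines, with Benjamini-Hochberg adjustment over all 10052 genes tested and calls at an adjusted p under 0.05. Of these 34, 2 rose and 0 fell, which is 5.88%, while 13.1% of all tested genes were called (7.65% higher and 5.45% lower). The share of members called was thus below the background. At an unadjusted p under 0.05 the fit gave 5 members, where 28.5% of all tested genes passed.

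The median log2 difference over the 34 members was -0.04, against -0.02 over all tested genes, and the median size of a difference was 0.24 against 0.28. The 95% confidence interval of the log2 difference lay between -1 and 1 for 30 of the 34 members, and for 73.7% of all tested genes. For these 30 the interval leaves no room for a 2-fold difference of RPKM + 1. For low members this is not a 2-fold bound in RPKM: the interval of Jarid2, at 0.901 RPKM in wt, reached 0.98. The 4 members whose interval went beyond -1 to 1 were Rbbp7, Phc2, Ezh1 and Pcgf5. Every T120D line exceeded wt for 13 members (31.1% of all tested genes), and every T120D line was under wt for 11 (32.3% of all tested genes).

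**Figure D1:**
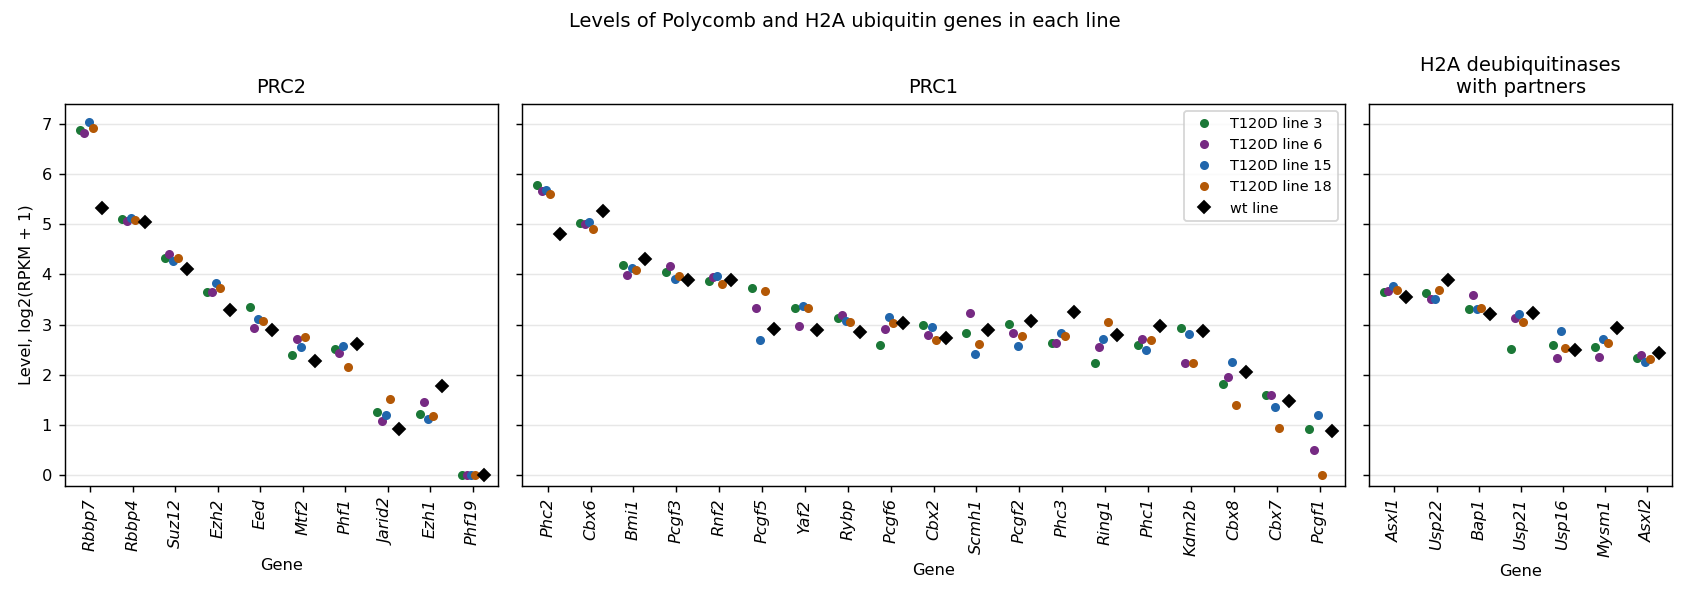
Level of each of the 36 members as log2(RPKM + 1) in each line, by complex, with the 4 T120D lines as coloured points and the wt line as a black diamond. Rbbp7 and Phc2 are the members whose T120D points stand well clear of the wt line, and Phf19 is listed at 0 in every line.

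The core of PRC2 is a methyltransferase, EZH2 or EZH1, held together by EED, SUZ12 and a histone-binding protein, RBBP4 or RBBP7. Rbbp7 had 116.3, 111.97, 129.8 and 119.9 RPKM in T120D lines 3, 6, 15 and 18, against 38.9 RPKM in the wt line. All 4 T120D lines lay far above wt, and they spanned a narrow range among themselves. The T120D lines averaged 119.5 ± 7.60 RPKM (SD, n = 4), which gave a log2 difference of 1.59 (limma adjusted p = 7.29e-05, SE 0.11) with a 95% confidence interval of 1.35 to 1.83. Up to 774 estimated reads in a T120D line and 238 in the wt line stand behind these values. The paralogue Rbbp4 had 33.3, 32.7, 33.8 and 33.1 RPKM in T120D lines 3, 6, 15 and 18, against 31.95 RPKM in wt. Its log2 difference was 0.05 (95% confidence interval -0.19 to 0.30), so a change of the size seen for Rbbp7 lies outside its interval. Both genes share sequence with other annotated transcripts: 11.2% of the 50-base stretches of Rbbp7 transcripts and 32.7% of those of Rbbp4 also occur in those of other genes, and how reads with several matches were counted is not stated in the labels.

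Because of this difference the summed level of both histone-binding subunits, compared per transcript length, was 152.7 ± 8.05 RPKM over the T120D lines (SD, n = 4) and 70.8 RPKM in wt. Rbbp7 made up 77.4% to 79.3% of that sum in the T120D lines and 54.9% in wt. It was the most abundant of the 36 members in both groups. RBBP7 also belongs to histone deacetylase, chromatin remodelling and histone acetyltransferase complexes, so its level is not a measure of PRC2 alone.

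The genes next to Rbbp7 on the X chromosome were higher in the T120D lines too. In the gene order of GRCm38, all 20 nearest tested genes, 10 on each side, had a positive log2 difference, 11 of them were called higher (7.65% of all tested genes), and every T120D line exceeded wt for 19. Their median log2 difference was 0.98, and by line 0.97, 0.89, 1.05 and 1.06 for T120D lines 3, 6, 15 and 18. For the other 33 tested members the median of the neighbours ran from -0.25 to 0.27, and at most 5 of the neighbours of any one were called higher. Rbbp7 was therefore the only member in such a stretch among those tested.

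The unbroken run of positive differences around Rbbp7 held 28 tested genes, from Acot9 to Tmsb4x, and ended 4 tested genes before the end of the chromosome. Within it 16 genes were called higher, of the 30 called higher among the 302 tested genes of the X chromosome, whose median log2 difference was -0.13. Siah1b, a ubiquitin ligase gene, had 16.4 ± 1.20 RPKM over the T120D lines (SD, n = 4) and 3.00 RPKM in wt, and Zrsr2, a splicing factor gene, had 18.5 ± 0.976 RPKM in T120D and 4.43 RPKM in wt. Eif1ax, a translation initiation factor gene, had 69.4 ± 1.82 RPKM in T120D and 32.1 RPKM in wt. Prdx4, Pir and Gemin8 in the same run had log2 differences of 0.00, 0.05 and 0.07. The nearest tested gene before Rbbp7, Scml2, which itself encodes a Polycomb protein, had 1.55, 0.914, 1.86 and 1.64 RPKM in T120D lines 3, 6, 15 and 18 and 0.303 RPKM in wt, and was not called (log2 difference 0.92, limma adjusted p = 0.0825). The run was delimited after its values were seen. Its part in the Rbbp7 difference was not tested, and with 1 wt line the values cannot tell whether the T120D lines or the wt line departs from other NIH/3T3 cells.

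**Figure D2:**
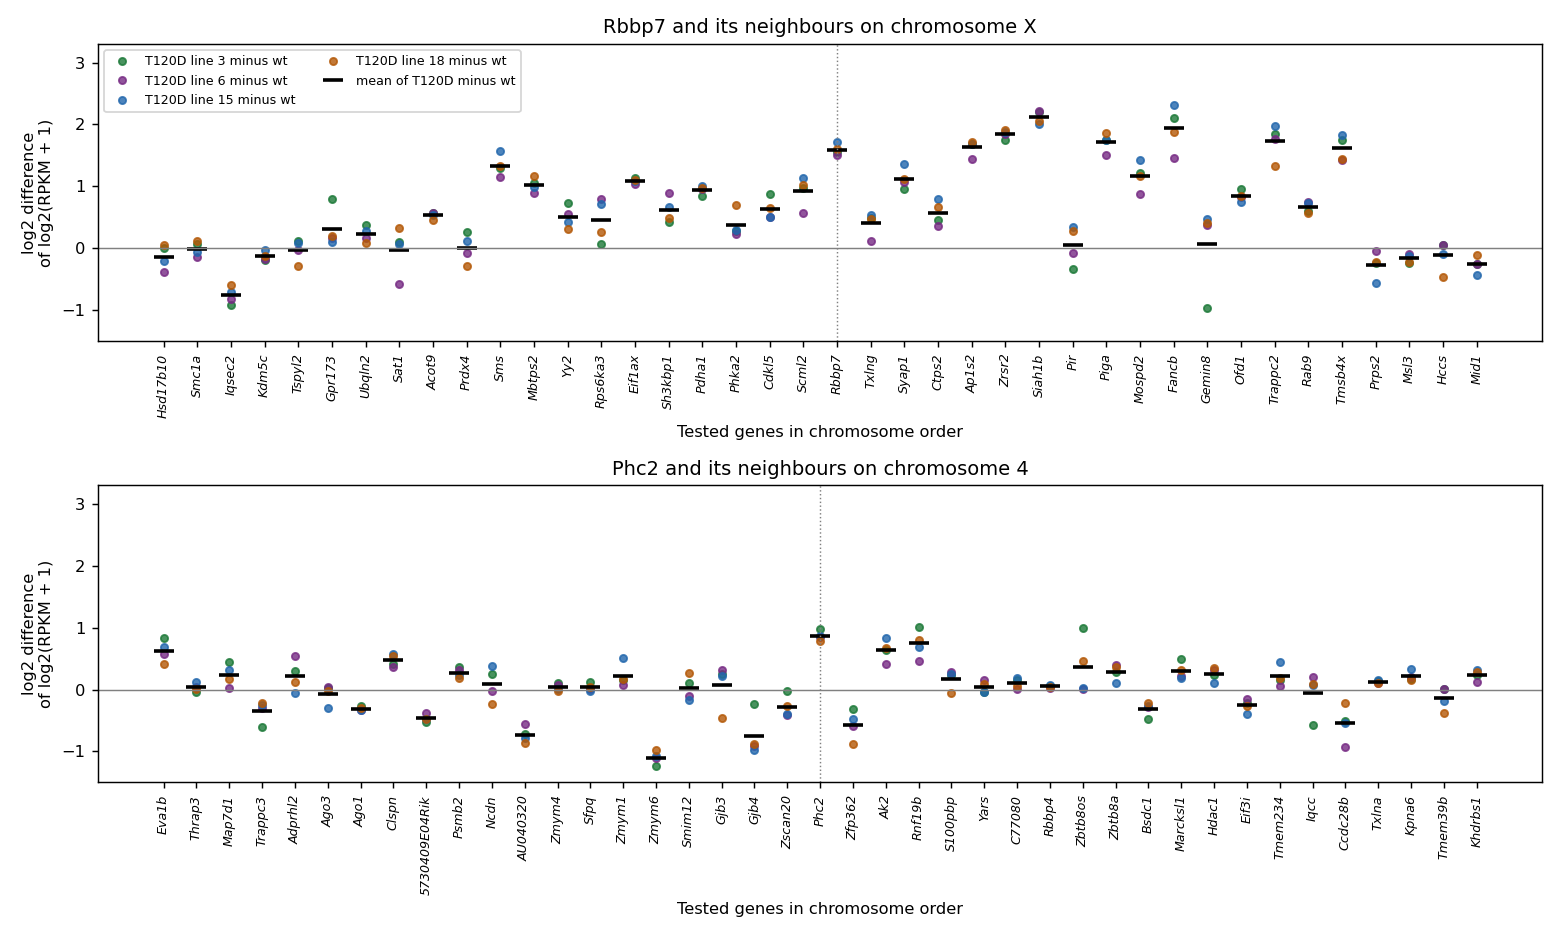
Log2 difference of log2(RPKM + 1), each T120D line minus wt (points) and their mean (black dashes), for tested genes in chromosome order around Rbbp7 (top, chromosome X) and Phc2 (bottom, chromosome 4). The 20 nearest neighbours of Rbbp7 all have a positive mean, while those of Phc2 lie on both sides of 0.

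Ezh2, the main methyltransferase gene of dividing cells, had 11.5, 11.6, 13.2 and 12.3 RPKM in T120D lines 3, 6, 15 and 18, against 8.85 RPKM in wt. All 4 T120D values lay above wt, but the difference was not called (log2 difference 0.41, 95% confidence interval 0.07 to 0.75, limma adjusted p = 0.105). Ezh1, the methyltransferase gene more typical of resting cells, had 1.32, 1.76, 1.16 and 1.27 RPKM in T120D lines 3, 6, 15 and 18, against 2.45 RPKM in wt. Here all 4 T120D values lay below wt, at an estimated 13 to 28 reads per line, and the difference was not called either (-0.54, 95% confidence interval -1.13 to 0.05, limma adjusted p = 0.21). Ezh2 made up 86.8% to 91.9% of the summed Ezh1 and Ezh2 level in the T120D lines and 78.3% in wt. The summed level was 13.5 ± 0.645 RPKM over the T120D lines (SD, n = 4) and 11.3 RPKM in wt.

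Suz12 and Eed, whose proteins hold the methyltransferase in its active shape, had log2 differences of 0.22 and 0.23 and were not called. Suz12 ranged from 18.3 to 20.1 RPKM in the T120D lines and was at 16.4 RPKM in wt, and Eed ranged from 6.63 to 9.21 RPKM in the T120D lines and was at 6.41 RPKM in wt. Of the accessory subunits, Mtf2, which helps to recruit PRC2 to chromatin, had 4.24 to 5.72 RPKM in the T120D lines and 3.84 RPKM in wt. Jarid2, a recruitment factor without demethylase activity, had 1.40, 1.13, 1.32 and 1.88 RPKM in T120D lines 3, 6, 15 and 18 and 0.901 RPKM in wt (log2 difference 0.35, 95% confidence interval -0.28 to 0.98). Phf1 had 3.44 to 4.95 RPKM in the T120D lines and 5.13 RPKM in wt. Phf19, which encodes another PRC2 accessory protein, was listed at 0 in all 5 lines, as were 628 gene symbols in all, and was not tested.

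Over the 9 tested PRC2 members, 1 rose and 0 fell, with a median log2 difference of 0.23, where 13.1% of all tested genes were called. Every T120D line exceeded wt for 7 of the 9 (31.1% of all tested genes) and was under wt for Ezh1 and Phf1 (32.3%). None of the 9 thus had the wt line inside the T120D range. For Rbbp4 and Eed the step was small, with lowest T120D values of 32.7 and 6.63 RPKM against 31.95 and 6.41 RPKM in wt. Without Rbbp7 the median was 0.22 over 8 members, of which 0 were called and 1, Ezh2, had an unadjusted p under 0.05. The expression of several PRC2 genes follows the cell cycle, and of 25 genes of DNA replication 12 rose, 0 fell and 13 were not called, with a median log2 difference of 0.58 (7.65% of all tested genes were called higher). The part of proliferation in the PRC2 values was not tested.

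PRC1 is built on a RING ligase, RING1 or RNF2, paired with 1 of 6 PCGF proteins. Rnf2, the more abundant ligase gene, had 13.7, 14.4, 14.6 and 13.04 RPKM in T120D lines 3, 6, 15 and 18, against 13.8 RPKM in wt. The wt value fell inside the T120D range, and the log2 difference was 0.01 with a 95% confidence interval of -0.30 to 0.33. Ring1 had 3.69, 4.90, 5.54 and 7.28 RPKM in T120D lines 3, 6, 15 and 18, against 5.95 RPKM in wt. The T120D lines spread widely around wt here, at an estimated 19 to 39 reads per line, and the difference was not called (-0.16, 95% confidence interval -0.79 to 0.47). The summed level of both ligase genes was 19.3 ± 1.34 RPKM over the T120D lines (SD, n = 4) and 19.8 RPKM in wt, which is within the spread of the T120D lines.

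Among the PCGF genes, Bmi1, the classical partner of canonical PRC1, had 17.3, 14.8, 16.5 and 16.1 RPKM in T120D lines 3, 6, 15 and 18, against 18.8 RPKM in wt (log2 difference -0.21, limma adjusted p = 0.37). Pcgf3, of non-canonical PRC1, had 14.1 to 17.0 RPKM in the T120D lines and 13.9 RPKM in wt. Pcgf5, also of non-canonical PRC1, had 12.3, 9.05, 5.48 and 11.8 RPKM in T120D lines 3, 6, 15 and 18, against 6.56 RPKM in wt. It was the member with the largest spread among T120D lines relative to counting noise, with a variance of its estimated reads 15.5 times the mean: line 15 lay below wt and the other T120D lines above it. Pcgf2 and Pcgf6 had log2 differences of -0.29 and -0.10. Pcgf1 had 0.905, 0.422, 1.29 and 0 RPKM in T120D lines 3, 6, 15 and 18 and 0.839 RPKM in wt, which rests on at most 3 estimated reads, and was not tested. Summed over the 6 PCGF genes, the level was 54.5 ± 3.32 RPKM over the T120D lines (SD, n = 4) and 54.7 RPKM in wt.

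The CBX proteins of canonical PRC1 read the methyl mark left by PRC2. Cbx6 was by far the most abundant of those measured, with 31.7, 31.2, 31.8 and 28.9 RPKM in T120D lines 3, 6, 15 and 18, against 37.3 RPKM in wt. All 4 T120D values lay below wt, but the difference was not called (log2 difference -0.27, limma adjusted p = 0.17). Cbx2 had 5.48 to 6.98 RPKM in the T120D lines and 5.69 RPKM in wt, Cbx8 1.63 to 3.78 RPKM in the T120D lines and 3.16 RPKM in wt, and Cbx7 0.918 to 2.05 RPKM in the T120D lines and 1.77 RPKM in wt. For these 3 genes the wt line lay within the T120D range.

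The PHC proteins are the polyhomeotic subunits, which link PRC1 complexes into larger assemblies through a domain at their C-terminal end. Phc2 had 54.1, 49.7, 50.1 and 47.5 RPKM in T120D lines 3, 6, 15 and 18, against 27.05 RPKM in wt. Each T120D line lay well above wt and the T120D lines lay close together. The T120D lines averaged 50.4 ± 2.77 RPKM (SD, n = 4), which gave a log2 difference of 0.87 (limma adjusted p = 0.00171, SE 0.11) with a 95% confidence interval of 0.62 to 1.13. None of the 50-base stretches of Phc2 transcripts occurred in another gene (0%). Its 20 nearest tested neighbours on chromosome 4 had a median log2 difference of 0.05, with 2 called higher and 2 lower.

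The paralogues of Phc2 did not share its difference. Phc3 had 5.24, 5.20, 6.17 and 5.83 RPKM in T120D lines 3, 6, 15 and 18, against 8.52 RPKM in wt, and Phc1 had 5.04, 5.56, 4.66 and 5.51 RPKM in T120D lines 3, 6, 15 and 18, against 6.86 RPKM in wt. For both, all 4 T120D lines lay below wt without a call (log2 differences of -0.53 and -0.35, limma adjusted p of 0.0859 and 0.252), and both confidence intervals exclude the difference measured for Phc2. Phc2 made up 80.7% to 84.0% of the summed PHC level in the T120D lines and 63.8% in wt. The summed level was 61.2 ± 2.35 RPKM over the T120D lines (SD, n = 4) and 42.4 RPKM in wt. Scmh1, whose protein joins the polyhomeotic subunits, had 6.18, 8.38, 4.32 and 5.14 RPKM in T120D lines 3, 6, 15 and 18, against 6.48 RPKM in wt, inside the T120D range.

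**Figure D3:**
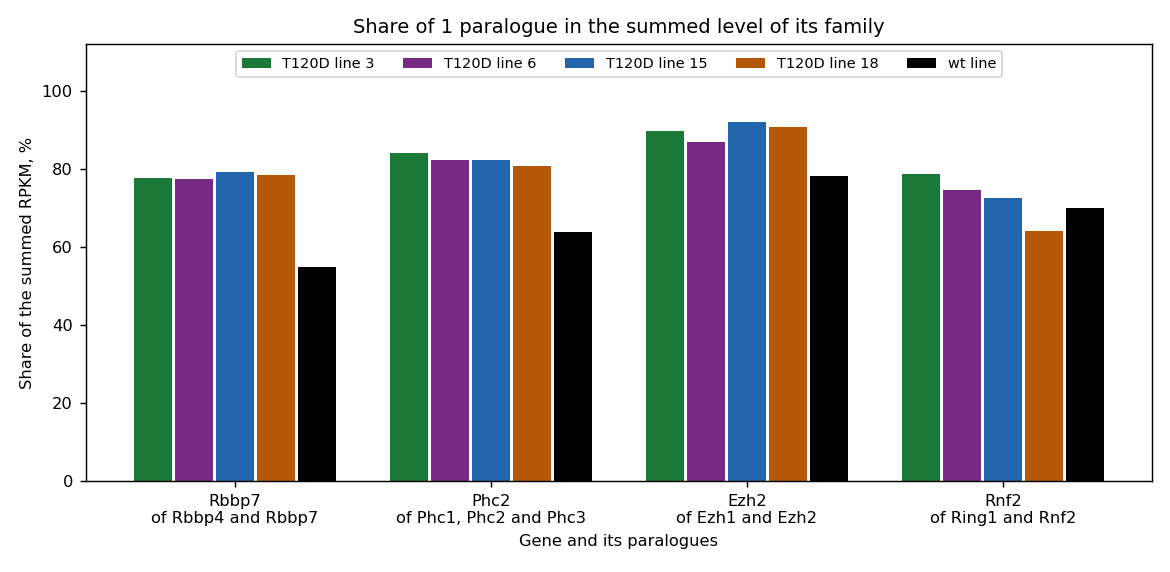
Share of 1 gene in the summed RPKM of its family, in percent, for each T120D line and the wt line. Rbbp7 and Phc2 make up a larger share of their families in every T120D line than in wt, Ezh2 likewise by a smaller margin, and for Rnf2 the wt line lies inside the T120D range.

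The remaining PRC1 members belong to its non-canonical forms, in which RYBP or YAF2 takes the place of a CBX protein and KDM2B binds unmethylated CpG sites. Rybp had 7.29 to 8.18 RPKM in the T120D lines and 6.20 RPKM in wt (log2 difference 0.26), and Yaf2 had 6.86 to 9.31 RPKM in the T120D lines and 6.49 RPKM in wt (0.35). Kdm2b had 6.63, 3.71, 6.08 and 3.69 RPKM in T120D lines 3, 6, 15 and 18, against 6.36 RPKM in wt. Lines 3 and 15 were thus near wt and lines 6 and 18 lower, and the variance of the estimated reads among T120D lines was 5.72 times their mean. Part of Kdm2b is shared with other annotated genes (22.4% of its 50-base stretches). Over the 18 tested PRC1 members 1 rose and 0 fell, at a background of 13.1% called, and the median log2 difference was -0.12. The wt line lay within the T120D range for 9 of the 18, and for 3678 of all 10052 tested genes.

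Of the enzymes that remove ubiquitin from H2A, none was called in the limma fit. Bap1 had 8.94, 11.1, 8.93 and 9.03 RPKM in T120D lines 3, 6, 15 and 18, against 8.29 RPKM in wt. Its log2 difference was 0.17 (95% confidence interval -0.22 to 0.56). Asxl1 and Asxl2, whose proteins activate BAP1, had log2 differences of 0.14 and -0.11, with 11.5 to 12.7 RPKM for Asxl1 in the T120D lines and 10.8 RPKM in wt, and 3.78 to 4.24 RPKM for Asxl2 in the T120D lines and 4.41 RPKM in wt.

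Usp16, which acts on H2A at mitosis, had 5.01, 4.07, 6.32 and 4.81 RPKM in T120D lines 3, 6, 15 and 18, against 4.65 RPKM in wt, inside the T120D range. Usp21 had 4.71, 7.79, 8.27 and 7.31 RPKM in T120D lines 3, 6, 15 and 18, against 8.41 RPKM in wt, and line 3 was the lowest by a wide step. Mysm1, a metalloprotease that acts on H2A, had 4.85, 4.13, 5.57 and 5.22 RPKM in T120D lines 3, 6, 15 and 18, against 6.62 RPKM in wt. Usp22, the ubiquitin protease of the SAGA coactivator complex, had 11.4, 10.4, 10.5 and 11.96 RPKM in T120D lines 3, 6, 15 and 18, against 13.8 RPKM in wt. For Usp21, Mysm1 and Usp22 all T120D lines lay below wt, with log2 differences of -0.25, -0.37 and -0.30 and limma adjusted p of 0.564, 0.268 and 0.232. With Asxl2, all T120D lines lay below wt for 4 of the 7 genes (32.3% of all tested genes). Over the 7 genes the median was -0.11, 0 rose and 0 fell (13.1% of all tested genes were called), and 0 had an unadjusted p under 0.05 (28.5% of all tested genes). All 7 intervals lay between -1 and 1, as did 73.7% of those of all tested genes.

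Set side by side, the medians of PRC2, PRC1 and the deubiquitinases were 0.23, -0.12 and -0.11, against -0.02 over all tested genes. By line, the PRC2 median was 0.22, 0.17, 0.22 and 0.21 in lines 3, 6, 15 and 18, the PRC1 median -0.03, -0.02, -0.07 and -0.15, and that of the deubiquitinases -0.09, -0.10, -0.02 and -0.11. Each of the 4 T120D lines thus had PRC2 above the others, though all share the same wt value. The medians rest on 9, 18 and 7 genes, and their differences were not tested.

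**Figure D4:**
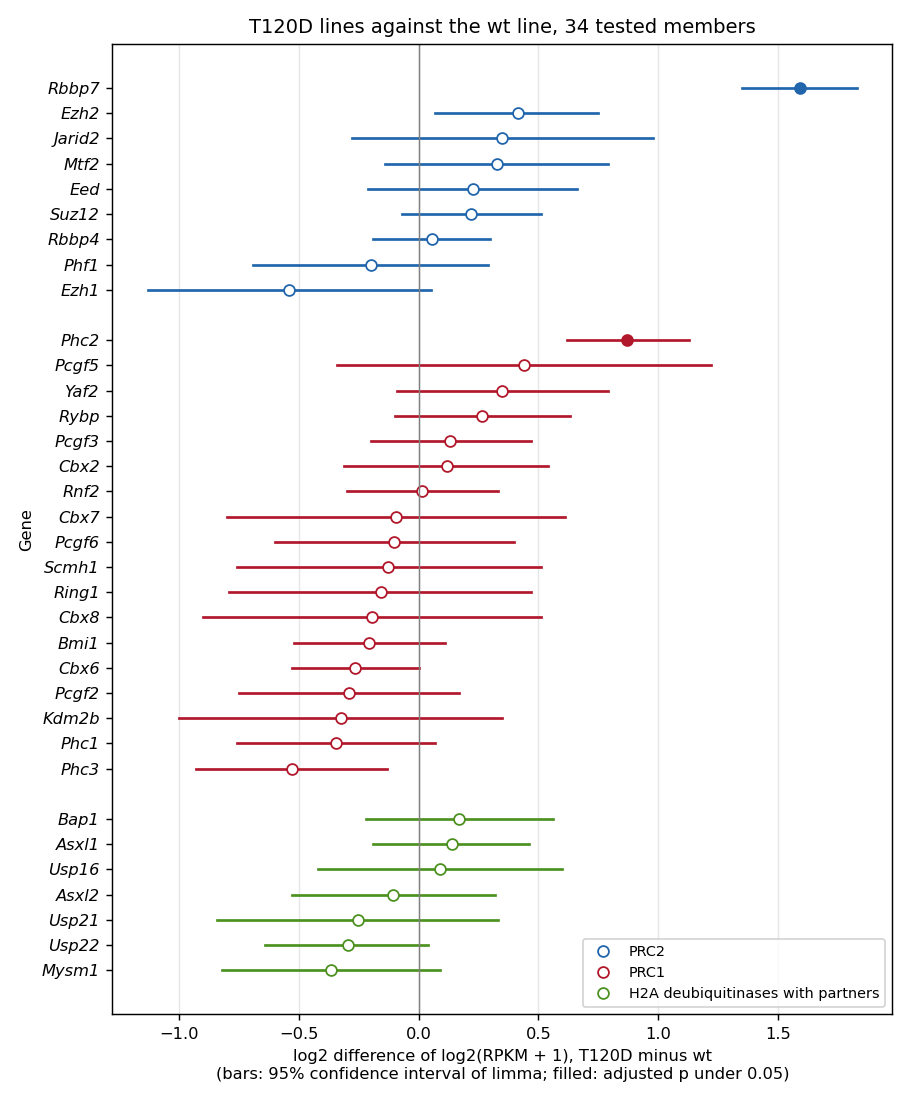
Log2 difference of log2(RPKM + 1), mean of the 4 T120D lines minus wt, with the 95% confidence interval of limma, for the 34 tested members by complex. Filled points mark the calls, Rbbp7 at 1.59 and Phc2 at 0.87, and open points the members that were not called.

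The promoters of the called members, Rbbp7 and Phc2, are shown. Both genes were higher in every T120D line than in the 1 wt line, and their paralogues were not called. Whether their promoters have a part in this was not tested. RefSeq gives 1 promoter window of 300 bases, from 250 before to 50 after the transcript start, for Rbbp7 and 3 for Phc2, of which the one richest in CpG is printed. The values per gene do not tell which Phc2 start was used. Capitals mark the GC box, GGGCGG on either strand.
Rbbp7, chrX:162760122-162760421, plus strand, GRCm38.p6: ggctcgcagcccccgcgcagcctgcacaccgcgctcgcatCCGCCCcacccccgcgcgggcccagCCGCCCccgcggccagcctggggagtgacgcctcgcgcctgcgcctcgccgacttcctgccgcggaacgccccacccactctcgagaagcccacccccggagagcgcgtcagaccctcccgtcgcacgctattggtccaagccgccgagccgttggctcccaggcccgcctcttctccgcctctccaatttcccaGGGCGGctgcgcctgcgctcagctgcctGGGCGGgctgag
Phc2, chr4:128727321-128727620, plus strand, GRCm38.p6: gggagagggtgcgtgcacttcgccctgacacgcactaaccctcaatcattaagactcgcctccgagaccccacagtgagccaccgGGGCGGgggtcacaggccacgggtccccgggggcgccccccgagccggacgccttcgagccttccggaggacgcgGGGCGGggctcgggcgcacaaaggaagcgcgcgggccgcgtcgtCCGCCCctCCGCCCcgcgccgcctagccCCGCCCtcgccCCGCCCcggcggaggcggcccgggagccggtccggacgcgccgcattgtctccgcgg
Both windows are rich in G and C, at 75.7% in Rbbp7 and 77.0% in Phc2, with an observed-to-expected CpG ratio of 0.94 and 1.02. They hold 4 and 6 GC box matches. Neither holds the E box CACGTG, the AP-1 motif TGANTCA or the TEAD motif GGAATG on either strand, and the ETS motif CCGGAAG occurs in that of Phc2. Another Phc2 window, from 128654452 to 128654751 on chromosome 4, holds 1 E box match. Its CpG ratio was 0.613 with 1 GC box match, and that of the remaining Phc2 window 0.107 with 0. The CpG richness of the printed Phc2 window thus follows in part from how it was chosen.

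CpG-rich starts were common to the members. RefSeq windows were found for 31 of the 36 genes, 41 windows in all, and their median CpG ratio was 0.831, against 0.782 in the 9695 windows of tested genes and 0.384 in all 32851 windows. The GC box occurred in 73.2% of the members' windows, 65.8% of those of tested genes and 35.7% of all. The E box occurred in 24.4% of the members' windows (10 of 41), against 10.3% for tested genes and 7.15% for all. The ETS motif was found in 12.2%, the AP-1 motif in 2.44% and the TEAD motif in 7.32% of the members' windows, against 19.3%, 4.69% and 11.8% for tested genes and 8.86%, 7.81% and 14.7% for all windows. None of the motifs contains another. These are letter matches in fixed windows, and windows of the same gene can overlap.

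Further genes that work with these complexes were taken from a list by function. Of 47 that passed the filter on low values, 0 rose and 1 fell (13.1% of all tested genes were called), with a median log2 difference of 0.00. The called gene was Ogt, which encodes the sugar transferase OGT, a partner of BAP1. It had 22.6, 23.2, 23.4 and 26.1 RPKM in T120D lines 3, 6, 15 and 18, against 39.0 RPKM in wt (log2 difference -0.69, SE 0.13, limma adjusted p = 0.00938). All 4 T120D lines lay well below wt. Ogt also lies on the X chromosome, and its 20 nearest tested neighbours had a median log2 difference of -0.11, with 0 called higher and 4 lower. Among the 20 tested partners of PRC1 and the 5 genes of the SAGA deubiquitinase module none was called, at a background of 13.1%. Kdm6a, an X-linked gene for a demethylase of the PRC2 mark, had a log2 difference of -0.54 (limma adjusted p = 0.229), and its 20 nearest tested neighbours all had negative differences with a median of -0.51. By line that median was -0.63, -0.04, -0.78 and -0.61 for T120D lines 3, 6, 15 and 18.

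Genes that Polycomb is known to repress in other lineages were taken from another list. Of 64 listed developmental regulators and cell cycle inhibitors, Hox genes left out, 28 had a value in the files and 19 passed the filter. The filter leaves out listed genes averaging under 1 RPKM over the 5 lines, so those tested are the ones more expressed in these cells. Of the genes left out, Nkx2-5 reached 2.34 RPKM and Irx3 1.71 RPKM in their highest line, and the others at most 0.804 RPKM. Of these 19, 1 rose and 1 fell, against 7.65% and 5.45% of all tested genes. Sox9, a cartilage transcription factor gene, fell, with 14.8, 13.4, 13.5 and 11.4 RPKM in T120D lines 3, 6, 15 and 18 against 30.8 RPKM in wt (log2 difference -1.16, limma adjusted p = 0.00221). En1, a homeobox gene of the dermis and brain, rose, with 9.75, 10.1, 8.83 and 8.62 RPKM in T120D lines 3, 6, 15 and 18 against 5.60 RPKM in wt (0.64, limma adjusted p = 0.0339). The call of En1 ended without line 3, 6 or 15, without the filter on low values and by limma without a trend (limma adjusted p of 0.0517 to 0.0714). Of the listed cell cycle inhibitors, Cdkn2a and Cdkn2b had no value in the files and Cdkn1c was at 0 RPKM in every line, so none was tested. The median over the 19 genes was -0.17.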

How the data were processed

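For each line the authors deposited RPKM values, reads scaled to transcript length and library size, of 14454 gene symbols. The submitters' processing notes name Partek and mm9. Which aligner, annotation and strand setting were used is not given in the sources used here. Members and lists were chosen with earlier results of these data known. T120D minus wt was tested in limma 3.58.1 (R 4.3.3; trended empirical Bayes, two-sided, 3 residual and 5.99 prior degrees of freedom) on log2(RPKM + 1), for genes averaging 1 RPKM or more, with Benjamini-Hochberg adjustment. This scale understates differences of low genes. The fit assumes that wt lines would vary like T120D lines. Permuting 1 line against 4 exactly gives a one-sided p of 0.2 at the lowest. RPKM holds no counts: depth was estimated from single-transcript genes under 20 reads, of which 48.8% to 54.6% came within 0.05 reads of a whole number (chance gives 10%), and estimated reads use the longest GENCODE M21 transcript. The fit was tested on simulated data, where it left most of the 2-fold falls and many of the 2-fold rises uncalled. Some larger falls were left uncalled too. Called members were named, with the enzymes and the highest and lowest members of each complex. GRCm38 gave gene order and promoters only. Alternatives were other pseudocounts, filters, scalings and trend, and leaving out each T120D line.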

Additional observations from a re-analysis of the deposited data

Results flagged for a closer look

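In 39 genes examined, 2 had 1 T120D line far from the other T120D lines relative to their range (Dixon's test at 95%, which chance passes in about 1 of 20 groups), and in both it was line 6. Bap1 had 11.06 RPKM in line 6, against 8.93 to 9.03 RPKM in lines 3, 15 and 18 and 8.29 RPKM in wt. Yaf2 had 6.861 RPKM in line 6, against 9.07 to 9.31 RPKM in lines 3, 15 and 18 and 6.49 RPKM in wt. The variance of the estimated reads among T120D lines was 0.558 times their mean for Yaf2, which is within counting noise, and 1.53 times for Bap1.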

How the results depend on the processing

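The calls of Rbbp7 and Phc2, with 0 members lower, held under all 11 alternatives, at log2 differences of 1.53 to 1.62 (limma adjusted p 5.59e-05 to 0.00854) for Rbbp7 and 0.80 to 0.90 (limma adjusted p 0.00125 to 0.0226) for Phc2. No other member was called under any of them: Ezh2 and Phc3 reached limma adjusted p of 0.0818 and 0.0741 at the lowest. Over all tested genes 434 were higher without the filter on low values, and by limma without a trend 455 were higher and 361 lower. The median of PRC2 was 0.25 with a pseudocount of 0.1 RPKM and 0.22 to 0.29 without 1 T120D line, that of PRC1 -0.15 to -0.06 without 1 T120D line, and that of the deubiquitinases -0.25 with the filter at 5 RPKM (5 genes) and -0.04 after quantile normalization. Of the developmental genes, 0 were higher without the filter on low values and by limma without a trend, and without 1 T120D line 0 to 1 were higher and 1 to 2 lower. The cause was not tested, beyond the change in genes or lines that each alternative makes. Median scaling moved the median of all genes by 0.021 and quantile normalization by 0.016 on the log2 scale. Depth limits Ezh1, Jarid2, Cbx7 and Cbx8, which rest on 8 to 36 estimated reads a line, and Pcgf1. Phf1, at 23 to 35 estimated reads, and Ring1, at 19 to 39, are limited likewise. No paired analysis was possible because the wt line shares no replicate number with the T120D lines.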

Other observations

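RBBP7 also serves the histone deacetylase complexes NuRD and SIN3, the remodeller NURF and the acetyltransferase HAT1. Of 20 tested genes of these partners, a list chosen after values were seen and so not tested as a list, 2 were higher in T120D and 0 lower, where 7.65% of all tested genes were higher and 5.45% lower, at a median log2 difference of 0.11. The higher genes were Gatad2a, a NuRD subunit gene with 15.1, 13.3, 15.1 and 15.1 RPKM in T120D lines 3, 6, 15 and 18 against 9.73 RPKM in wt (limma adjusted p = 0.0396), and Sap30, a SIN3 subunit gene with 6.35, 5.62, 6.35 and 7.38 RPKM in T120D lines 3, 6, 15 and 18 against 3.41 RPKM in wt (limma adjusted p = 0.0343). For both, all 4 T120D lines lay above wt.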
